A study of Mus musculus with 6 samples.

Results

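The genes described here are 10 receptors through which cells sense cytokines, leptin and bacterial products. They are Il6st, Il6ra, Lepr, Ifngr1, Ifngr2, Ifnar1, Ifnar2, Tnfrsf1a, Il1r1 and Tlr4. They were chosen by name, with earlier results of these data known, and all 10 were found among the 54281 genes measured. GLUTag cells are a murine enteroendocrine line that makes proglucagon and secretes GLP-1. Polyadenylated RNA of 6 wells was sequenced from the 3′ end of each transcript. A count stands for a read from a transcript end, and levels of different genes are set side by side without a correction for length. Other differences between genes in how well they are read were not corrected. Where all libraries share such a difference, the p-values between genes do not cover it. The wells were of a single condition with no treatment, grown for 48 h on Matrigel in medium with 1 g/L glucose and 10% FBS. Plate 1 held 3 wells of passage 23 and plate 2 held 3 of passage 27, and the effects of plate and of passage cannot be told apart. The 6 libraries are of 1 cell line in 2 cultures. Nothing in the labels says that the wells of a plate were separate cultures, so p-values refer to these wells only.

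The total per library was between 21399987 and 36488198 counts, and levels are given as counts per M counts of the library (CPM). Plate 1 libraries are named by replicate number, and those of plate 2, for which the replicate number of a column was not clear, as the lowest, middle or highest plate 2 library after their total count. A count of 0 allows up to 3 counts, which corresponds to 0.0822 CPM in the deepest library and 0.140 CPM in the shallowest and covers counting error only. The labelled cell type was checked against 10 enteroendocrine markers, whose summed level was between 5696 and 7624 CPM, with the proglucagon gene Gcg at 3416 ± 771 CPM (SD, n = 6) and the peptide YY gene Pyy at only 0.263 ± 0.303 CPM. A list of 10 leukocyte markers summed to between 1.94 and 3.52 CPM. The only one with a mean of at least 1 CPM was Itgam at 1.24 ± 0.52 CPM, followed by Cd68 at 0.633 ± 0.298 CPM. The pan-leukocyte marker Ptprc had at most 4 counts in a library, and Fcer1g had 0 counts in all. Of 8 stromal and vessel markers, 2 had a mean of at least 1 CPM, Pecam1 at 43.0 ± 33.3 CPM and the collagen gene Col1a2 at 5.87 ± 0.93 CPM, while the endothelial markers Cdh5 and Kdr were under the limit of a count of 0, at means of 0.0234 and 0.0502 CPM.

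Receptors of this kind bind a signal outside the cell and pass it on through enzymes or adaptors that act on their inner part. Il6st encodes gp130, the signalling chain shared by interleukin-6, interleukin-11, leukaemia inhibitory factor and their relatives. The chain encoded by Il6ra binds interleukin-6 itself, and the long form of the leptin receptor Lepr is built like gp130. Type II interferon is bound by Ifngr1 with Ifngr2, and type I interferons by Ifnar2 with Ifnar1. These receptors work through Janus kinases (JAK) and STAT transcription factors. Tnfrsf1a is the main receptor for tumour necrosis factor, Il1r1 is the signalling receptor for interleukin-1 and Tlr4 recognises bacterial lipopolysaccharide. These last act through adaptors that activate NF-κB. In the gut, interleukin-6 and leptin are known as signals to which L-cells can respond with GLP-1 release.

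On GRCm38, Il6st (ENSMUSG00000021756) lies at chr13:112464070-112510086, Il6ra (ENSMUSG00000027947) at chr3:89864059-89913196 and Lepr (ENSMUSG00000057722) at chr4:101717404-101815352. A cluster on chromosome 16 holds 3 of the interferon receptor genes on the plus strand, in the order Ifnar2 (ENSMUSG00000022971, chr16:91372783-91405589), Ifnar1 (ENSMUSG00000022967, chr16:91485238-91507441) and Ifngr2 (ENSMUSG00000022965, chr16:91547072-91565623), with the interleukin-10 receptor chain Il10rb between the first and the second. Ifngr1 (ENSMUSG00000020009) lies apart at chr10:19591949-19610229. The others are Tnfrsf1a (ENSMUSG00000030341) at chr6:125349362-125362484, Il1r1 (ENSMUSG00000026072) at chr1:40225080-40317257 and Tlr4 (ENSMUSG00000039005) at chr4:66827584-66930284. An antisense gene, Gm42809, overlaps Il6ra, and the strand setting of the counting is not given in the sources used here, but it had at most 3 counts in any library. Gm38070 overlaps Il1r1 on the same strand with at most 4.8 counts.

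The 250 bases before a RefSeq start site on GRCm38.p6 were matched for 9 of the 10 genes. Those of 4 genes are shown because they span the levels described below, from the highest gene to the lowest. They are chr13:112463820-112464069 for Il6st, chr4:101717157-101717406 for the first start of Lepr, chr6:125349473-125349722 for Tnfrsf1a and chr1:40224830-40225079 for the first start of Il1r1. All 4 are read on the plus strand from 5′ to 3′, and capitals mark CpG dinucleotides.
Il6st: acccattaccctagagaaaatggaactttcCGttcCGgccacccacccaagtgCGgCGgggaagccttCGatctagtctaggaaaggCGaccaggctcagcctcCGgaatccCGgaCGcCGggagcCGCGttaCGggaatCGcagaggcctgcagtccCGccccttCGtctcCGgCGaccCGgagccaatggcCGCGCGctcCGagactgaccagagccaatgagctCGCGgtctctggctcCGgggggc
Lepr: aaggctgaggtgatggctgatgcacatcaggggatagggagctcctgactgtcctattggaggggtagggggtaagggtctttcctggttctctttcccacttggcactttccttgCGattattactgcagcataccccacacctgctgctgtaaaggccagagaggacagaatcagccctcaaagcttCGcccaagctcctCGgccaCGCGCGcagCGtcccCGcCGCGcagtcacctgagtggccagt
Tnfrsf1a: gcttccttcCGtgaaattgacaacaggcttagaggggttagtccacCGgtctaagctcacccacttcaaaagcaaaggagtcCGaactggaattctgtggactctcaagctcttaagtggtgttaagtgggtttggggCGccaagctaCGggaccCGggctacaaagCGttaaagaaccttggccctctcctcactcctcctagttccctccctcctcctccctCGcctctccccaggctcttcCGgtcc
Il1r1: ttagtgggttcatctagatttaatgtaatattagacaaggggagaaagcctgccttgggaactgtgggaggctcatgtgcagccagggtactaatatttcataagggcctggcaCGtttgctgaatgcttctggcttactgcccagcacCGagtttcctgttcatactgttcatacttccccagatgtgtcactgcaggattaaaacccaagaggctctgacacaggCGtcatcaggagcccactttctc

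The Il6st stretch held 26 CpG dinucleotides, and 9.59% of the 32851 mouse promoters in the same RefSeq table held as many. The first starts of Lepr, Tnfrsf1a and Il1r1 held 10, 9 and 3, against a median of 6 over all promoters. For Il1r1, 71.0% of promoters held as many. Those of the remaining genes held 25 for Ifngr2, 19 for Ifnar1, 18 for Il6ra, 11 for Ifngr1 and 11 for Ifnar2. The letters TTCNNNGAA, the palindromic core bound by STAT factors and so the same on either strand, were present before Tnfrsf1a and Ifnar2 and in 7.02% of all promoters. The TATA box letters TATAAA, searched on both strands, were in none of the stretches of these genes and in 12.4% of all promoters. These matches describe the letters only.

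Transcripts of all 10 receptors were counted in all 6 libraries, over more than 100-fold in mean level. Of these, 8 had a mean of at least 1 CPM and more than 3 counts in every library. Il1r1 and Tlr4 were the exceptions. In RNA from whole wells, fewer cells with a transcript and less of it per cell cannot be told apart. In order of mean CPM the genes were Il6st, Ifngr1, Ifngr2, Ifnar2, Lepr, Ifnar1, Il6ra, Tnfrsf1a, Tlr4 and Il1r1. Of the 27044 genes with any count, 88.0% had a lower mean than Il6st and 40.1% a lower mean than Il1r1. The plot of receptor levels shows every library.

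**Figure D1:**
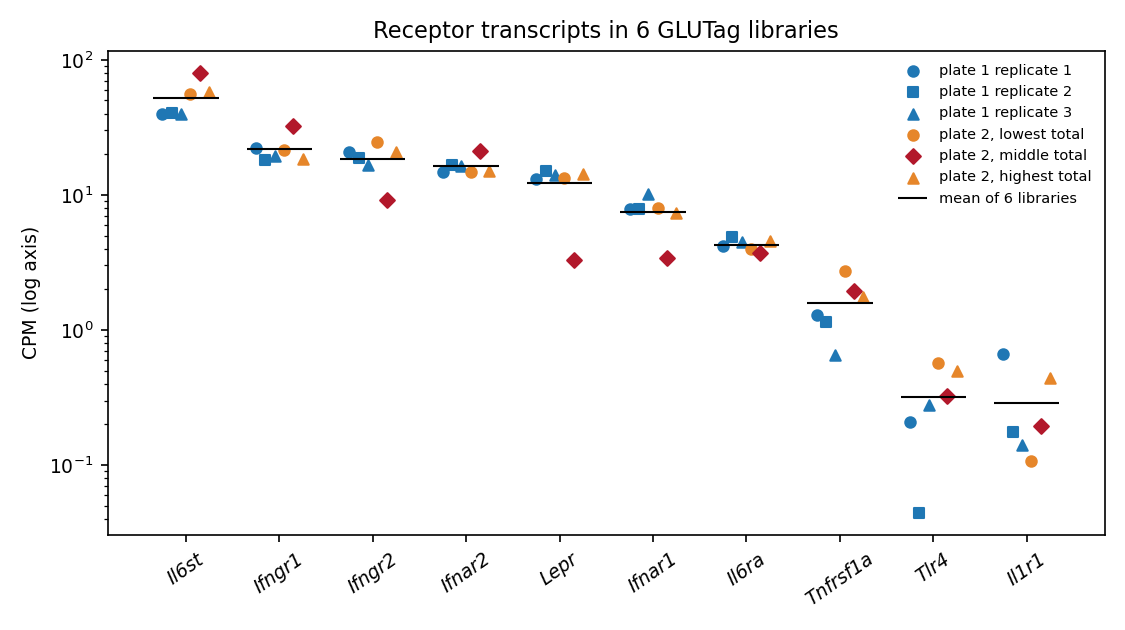
Level of each receptor in CPM on a log axis, with 1 point per library (blue for plate 1, orange and red for plate 2) and a black line at the mean of 6 libraries. Il6st lies highest in every library, at 39.6 CPM or more, and Tlr4 and Il1r1 lie under 1 CPM throughout. The red diamonds, the middle plate 2 library, stand below the other points for Lepr, Ifnar1 and Ifngr2. They stand above them for Ifngr1, Ifnar2 and Il6st.

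Il6st was the most abundant of the 10 in each library. On plate 1 it was at 39.6, 40.7 and 40.0 CPM in replicates 1, 2 and 3, and on plate 2 at 56.2, 80.2 and 57.5 CPM in the lowest, middle and highest library by total. The mean was 52.4 ± 15.9 CPM (SD, n = 6), and plate 2 lay above plate 1 without overlap on this scale, as did 35.2% of all genes tested. The next gene in the order, Ifngr1, was lower than Il6st in 6 of 6 libraries, with a log2 ratio of CPM + 1 of 1.19 ± 0.28. The exact two-sided sign-flip permutation test gave p = 0.03125, the smallest value that 6 libraries allow, and 0.0547 after Benjamini-Hochberg adjustment over the 14 comparisons made between genes. The first of these is under 0.05 and the second is not. That holds for 8 of the 14 comparisons, each with 6 of 6 libraries in the same direction, and 0 of the 14 had an adjusted p under 0.05. Neighbours in the order, and which of them is the higher, were taken from the means of the same libraries. Their p-values are therefore a description only and do not test the order. The sign-flip test gives 0.03125 whenever all 6 libraries point the same way, whatever the size or spread of the ratios. The partner pairs were set by their biology.

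The chain that binds interleukin-6, Il6ra, was present at 4.21, 4.86 and 4.44 CPM on plate 1 and at 3.99, 3.72 and 4.52 CPM on plate 2, in the same order of libraries. Its mean was 4.29 ± 0.41 CPM. Il6st exceeded it in each library by a log2 ratio of between 2.83 and 4.10 (mean 3.29 ± 0.49, exact permutation p = 0.03125, adjusted p = 0.0547, n = 6). The genes that pair with gp130 for other cytokines differed widely. Lifr, the receptor chain for leukaemia inhibitory factor, was at 8.59 ± 2.47 CPM, and Cntfr, which binds ciliary neurotrophic factor, at 3.14 ± 0.56 CPM. Osmr, the oncostatin M chain, had 0 counts in all libraries. The interleukin-11 chain Il11ra1 was listed at a mean of 0.236 CPM, an uncertain value because mice carry near-identical copies of this gene. The sheddases Adam17 and Adam10, which cut receptors such as the interleukin-6 receptor from the cell surface, were at 25.8 ± 5.21 and 23.2 ± 8.58 CPM.

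The leptin receptor gene Lepr was at 13.2, 15.1 and 14.1 CPM on plate 1 and at 13.3 and 14.2 CPM in the lowest and highest plate 2 libraries. In the middle plate 2 library it was at 3.27 CPM. The first 5 values lie within a narrow range and the last lies far below them, and the mean was 12.2 ± 4.42 CPM. The counts of Lepr were not whole numbers (316.6, 340.9 and 301.5 on plate 1), so some of its reads were shared out among genes by the authors' estimation. Counts per gene also do not separate the long, signalling form from the short forms. Leprot, a neighbour upstream on the same strand of chromosome 4 whose protein is known to affect leptin receptor display at the cell surface, was at 51.2 ± 10.9 CPM, close in level to Il6st, and was not low in the middle plate 2 library, at 61.0 CPM. The leptin gene itself, Lep, had 0 counts in all libraries.

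Both chains of the type II interferon receptor were present at similar levels. Ifngr1, the chain that binds the ligand, was at 22.1, 18.2 and 19.5 CPM on plate 1 and at 21.6, 32.3 and 18.4 CPM on plate 2 (mean 22.0 ± 5.31). Ifngr2, the accessory chain, was at 20.8, 18.9 and 16.7 CPM on plate 1 and at 24.8, 9.09 and 20.9 CPM on plate 2 (mean 18.5 ± 5.35). Ifngr1 was the higher of the pair in 3 of 6 libraries. The mean log2 ratio was 0.27 ± 0.73 with a range of -0.19 to 1.72 (exact permutation test, adjusted p = 0.707, n = 6), and no difference between the chains was detectable. The highest ratio was that of the middle plate 2 library, and without it the mean ratio was -0.02.

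Among the type I interferon chains, Ifnar2 exceeded Ifnar1 in all 6 libraries. Ifnar2, the chain with the higher affinity for ligand, was at 14.9, 16.6 and 16.3 CPM on plate 1 and at 14.7, 20.96 and 15.1 CPM on plate 2 (mean 16.4 ± 2.36). Ifnar1 was at 7.88, 7.86 and 10.2 CPM on plate 1 and at 7.98, 3.40 and 7.32 CPM on plate 2 (mean 7.44 ± 2.22). The log2 ratio of Ifnar1 to Ifnar2 was -1.09 ± 0.62 (exact permutation p = 0.03125, adjusted p = 0.0547, n = 6). The groups of values did not overlap, since the highest level of Ifnar1 was below the lowest of Ifnar2. Ifnar2 and Ifngr2, neighbours in the order, were not separated (log2 ratio of Ifngr2 to Ifnar2 of 0.12 ± 0.65, exact permutation p = 0.656, n = 6). Il10rb, which lies in the same cluster and serves interleukin-10 and its relatives, was at 4.39 ± 1.10 CPM.

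Lepr fell between these chains in the order. Ifnar2 was above Lepr in 6 of 6 libraries, by a log2 ratio between 0.08 and 2.36 (mean 0.51 ± 0.91, exact permutation p = 0.03125, adjusted p = 0.0547, n = 6). The highest ratio was that of the middle plate 2 library, without which the mean fell to 0.14. Lepr was above Ifnar1 in 5 of 6 libraries (mean log2 ratio 0.58 ± 0.34, exact permutation p = 0.0625, adjusted p = 0.0875, n = 6), and Ifnar1 was above Il6ra in 5 of 6 with the same p (0.62 ± 0.39). In both comparisons the exception was the middle plate 2 library.

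The receptors that signal to NF-κB were the lowest of the 10. Tnfrsf1a was at 1.29, 1.15 and 0.654 CPM on plate 1 and at 2.74, 1.94 and 1.75 CPM on plate 2, with a mean of 1.59 ± 0.73 CPM from 14 to 77 counts per library. All plate 2 libraries were above all plate 1 libraries, as for 35.2% of all genes tested on this scale. It was below Il6ra in each library (log2 ratio of Il6ra to Tnfrsf1a of 1.08 ± 0.48, exact permutation p = 0.03125, adjusted p = 0.0547, n = 6). Tnfrsf1b, the second receptor for tumour necrosis factor, was at 0.885 ± 0.375 CPM. Tnfrsf1a exceeded it in 6 of 6 libraries, by a log2 ratio of CPM + 1 of 0.43 ± 0.37 with the same p. The ratio ran from 0.04 to 0.88, and at its lowest, in plate 1 replicate 3, the counts were 14 against 13.

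Il1r1 and Tlr4 were close to the limit of detection. Il1r1 had 16, 4 and 3 counts on plate 1 and 3, 6 and 16 on plate 2, a mean of 0.287 ± 0.220 CPM. Its accessory chain Il1rap, needed for the signal, was at 5.67 ± 2.52 CPM and thus higher in all 6 libraries (log2 ratio of Il1r1 to Il1rap of -2.30 ± 0.58, exact permutation p = 0.03125, adjusted p = 0.0547, n = 6). The decoy receptor Il1r2 never exceeded 3 counts. Tlr4 had 5, 1 and 6 counts on plate 1 and 16, 10 and 18 on plate 2, a mean of 0.320 ± 0.191 CPM. Its co-receptors were as scarce, with Ly96, which binds the lipid part of lipopolysaccharide, at 0.238 ± 0.162 CPM and Cd14 at 0.252 ± 0.111 CPM. Tlr4 and Il1r1 were not separated (0.04 ± 0.33, exact permutation p = 0.719, n = 6), nor were Tlr4 and Ly96 (0.09 ± 0.22, exact permutation p = 0.375, n = 6). Tnfrsf1a was above Tlr4 in all libraries (0.94 ± 0.31, exact permutation p = 0.03125, adjusted p = 0.0547, n = 6). The size of a log2 ratio between such low genes depends on the value added to CPM. With 0.1 or 5 added in place of 1, it was 0.73 or 0.16 for Tnfrsf1a to Tnfrsf1b, -3.94 or -0.98 for Il1r1 to Il1rap, 2.05 or 0.30 for Tnfrsf1a to Tlr4 and 1.49 or 0.50 for Il6ra to Tnfrsf1a, with the same adjusted p.

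Genes that carry the signal inwards were mostly present. Of 23 JAK-STAT genes, 22 had a mean of at least 1 CPM. The highest were the phosphatases Ptpn1 (82.0 ± 10.4 CPM), which restrains leptin receptor signalling, and Ptpn11 (73.6 ± 8.70 CPM), followed by the kinase Jak1 (72.1 ± 12.0 CPM), which serves gp130 and both interferon receptors. Of 28 NF-κB adaptors and regulators, 25 had at least 1 CPM, led by the interleukin-1 receptor kinase Irak1 at 342 ± 87.6 CPM, the inhibitor Nfkbia at 138 ± 14.1 CPM and the adaptor Tab2 at 121 ± 31.4 CPM. The plot of the lists shows these levels beside those of the receptors.

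**Figure D2:**
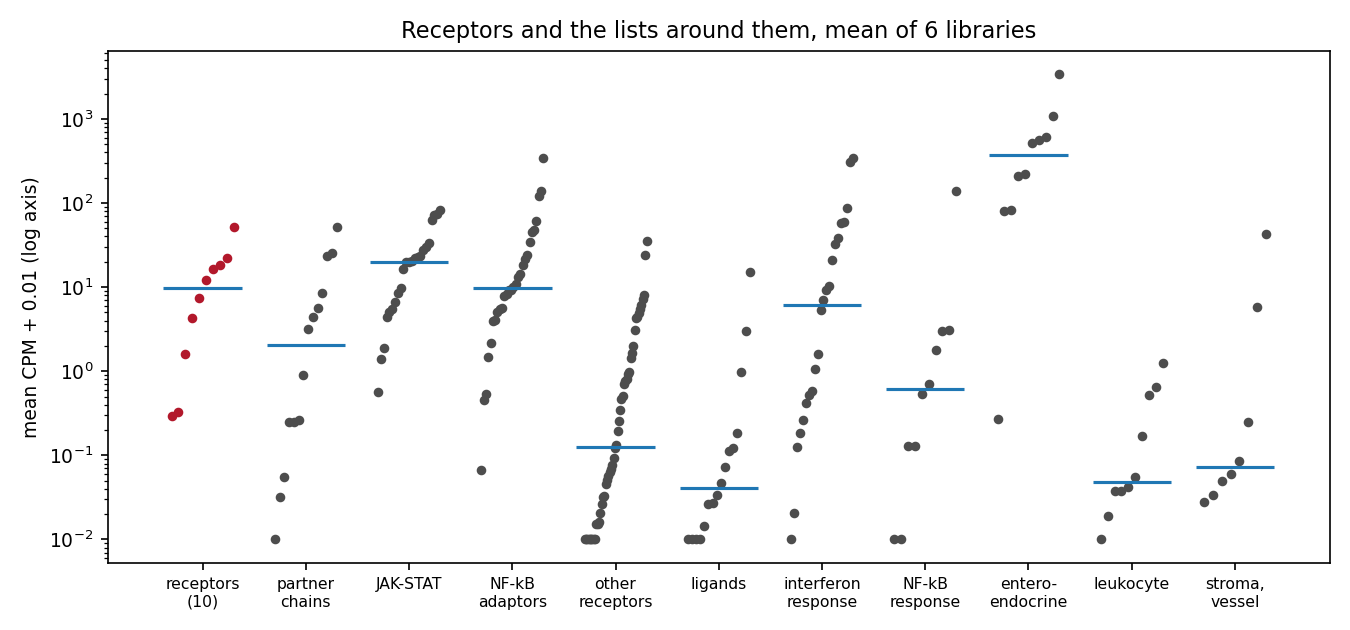
Mean CPM of 6 libraries plus 0.01 on a log axis for the 10 receptors (red) and for each list around them (grey), with 1 point per gene in rising order and a blue line at the list's median. JAK-STAT genes have a median of 19.98 CPM, the receptors one of 9.81 CPM and the NF-κB adaptors one of 9.66 CPM, while ligands and leukocyte markers have medians of 0.0305 and 0.0385 CPM.

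Most ligand transcripts were not detectable at this depth. Of 16 ligand genes, 10 never exceeded 3 counts, and Il6, Cntf, Lep and Ifnb1 had 0 counts in all. Il1b, which encodes interleukin-1 beta, was the highest at 15.0 ± 2.46 CPM, between 11.5 and 18.2 CPM. Il11 followed at 3.03 ± 0.67 CPM and Il27 at 0.964 ± 0.404 CPM. The receptor for interleukin-1 beta, Il1r1, had a mean of 0.287 CPM. Among 48 other cytokine and innate immune receptors, 13 had a mean of at least 1 CPM and 9 had 0 counts in all libraries. For the 10 genes described here the numbers were 8 and 0. Both lists were chosen with earlier results of these data known, so these numbers describe the lists only. The highest of the 48 were the growth hormone receptor Ghr (35.6 ± 7.55 CPM), Il17ra (24.1 ± 9.11 CPM), which binds interleukin-17, and Cd40 (8.02 ± 2.22 CPM). The Toll-like receptor genes Tlr1, Tlr5, Tlr6 and Tlr9 were among those at 0.

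Genes that interferon is known to induce were uneven. H2-K1 and H2-D1, which encode class I histocompatibility proteins, were at 346 ± 93.8 and 309 ± 69.9 CPM, and Ifi27 at 87.9 ± 17.7 CPM. The levels of the H2 genes are uncertain, because near-identical family members share reads. Of the list of 22, 14 had at least 1 CPM, and Gbp2 had 0 counts in all libraries. Of 10 genes that NF-κB is known to induce, 4 had at least 1 CPM, led by Nfkbia, Nfkbiz at 3.07 ± 0.49 CPM and Icam1 at 3.01 ± 0.75 CPM, while the chemokine genes Cxcl1 and Cxcl2 had 0 counts in all libraries. The labels name no cytokine added to these wells.

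The plates were compared to ask whether receptor levels differed between the cultures. No receptor passed the test. In the edgeR quasi-likelihood test with TMM scaling, which brings libraries to a common level through the bulk of genes, 29 of 15669 genes (0.185%) had an adjusted p under 0.05, and 0 of the 8 receptors tested were among them. Il1r1 and Tlr4 were too low to be tested. DESeq2, which called 3.89% of the genes it tested, and limma-voom, which called 0.0638%, also called 0 of the 8. At an unadjusted p under 0.05 there were 2 of 8, against 16.1% of all genes tested. These were Il6st, higher on plate 2 by a log2 fold change of 0.43 (SE 0.16, adjusted p = 0.242) and of 0.20 (SE 0.10) without the middle plate 2 library, and Ifnar1, lower on plate 2 by -0.74 (SE 0.29, adjusted p = 0.260).

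For the other receptors, the log2 fold change of plate 2 over plate 1 was 0.77 for Tnfrsf1a (SE 0.36, adjusted p = 0.330), -0.73 for Lepr (SE 0.51, adjusted p = 0.548) and -0.41 for Il6ra (SE 0.20, adjusted p = 0.355). It was -0.32 for Ifngr2 (SE 0.33), -0.18 for Ifnar2 (SE 0.18) and 0.01 for Ifngr1 (SE 0.22), with adjusted p of at least 0.684. The sign for Ifnar2 turns without scaling beyond the total, where the median of all genes is shifted up on plate 2 by 0.30, and that for Ifngr1 turns under several settings. Among the settings tried, Il6st was called only without that scaling, with a log2 fold change of 0.69 (SE 0.16) and an adjusted p of 0.0360 (edgeR). In that setting 1482 of the 15669 genes tested were called, 1411 of them higher on plate 2, so a call of 1 of 8 receptors does not set them apart. The values there were closer to 0 for Il6ra (-0.14), Lepr (-0.46), Ifnar1 (-0.47) and Ifngr2 (-0.04), and that for Ifngr1 was 0.27. In that setting the 8 values ran from -0.47 for Ifnar1 to 1.05 for Tnfrsf1a, with Ifnar2 at 0.088. With TMM scaling, the median over the 8 receptors was -0.25, against 0.03 over all genes tested.

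On TMM-scaled CPM, the plate 2 libraries all lay above those of plate 1 for Il6st and Tnfrsf1a, against 12.8% of all genes tested, and all below for Il6ra, Lepr and Ifnar1, against 12.0%. On CPM over the total, Il6st, Tnfrsf1a and Tlr4 lay above without overlap (35.2% of genes tested) and none of the 10 lay below (4.00%). The enteroendocrine markers together were at 5696 to 6589 CPM on plate 1 and at 6724 to 7624 CPM on plate 2. The leukocyte markers were at 1.94 to 2.63 CPM on plate 1 and at 2.56 to 3.52 CPM on plate 2, while the stromal and vessel markers were at 44.3 to 106.2 CPM on plate 1 and at 10.8 to 39.6 CPM on plate 2. The part of these lists in the values of the receptors was not tested. Of the lists around the receptors, 0 genes were called by edgeR in any. At an unadjusted p under 0.05 there were 6 of 23 JAK-STAT genes, 2 of 8 partner genes (Leprot and Adam10), 4 of 27 NF-κB adaptors, 4 of 20 other receptors, 0 of 3 ligands, 4 of 17 interferon response genes and 2 of 6 NF-κB response genes, against 16.1% of all genes tested. DESeq2 (3.89% of all genes it tested) called Stat5a, Irak1 and Rsad2, and limma-voom none. Without the middle plate 2 library, edgeR called 1911 of 15894 genes (12.0%), among them 2 of 23 JAK-STAT genes (Jak2 and Stat5a), 1 of 8 partner genes (Adam10), 3 of 27 NF-κB adaptors, 2 of 20 other receptors, 2 of 17 interferon response genes and no ligand or NF-κB response gene. In the edgeR fit of all 6 libraries, the smallest adjusted p of the lists was 0.0712, for Stat5a. In that fit Stat5a was higher on plate 2 by a log2 fold change of 0.82 (SE 0.15).

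**Figure D3:**
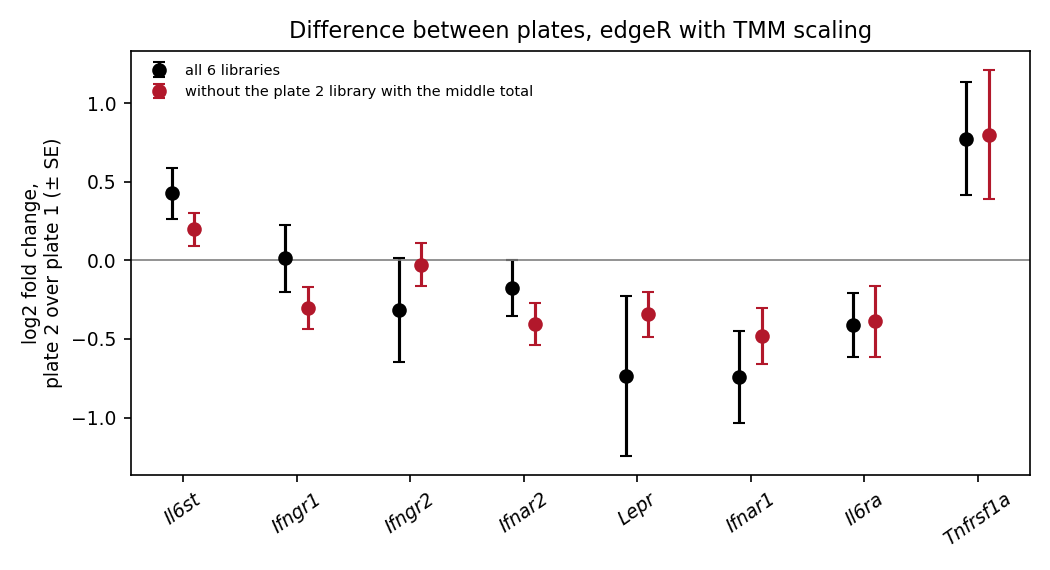
Log2 fold change of plate 2 over plate 1 for the 8 receptors tested, from edgeR with TMM scaling, with bars of 1 SE (black for all 6 libraries, red without the middle plate 2 library). Without that library, Lepr moves from -0.73 to -0.34, Ifngr1 from 0.01 to -0.30 and Ifngr2 from -0.32 to -0.03, while Tnfrsf1a is at 0.77 and 0.80.

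One library decided several of these values. In the middle plate 2 library, 3 of the 8 receptors tested were more than 2-fold below the mean CPM of the other 5 libraries, against 7.24% of all genes tested, where 0.1 CPM was added to both sides for the count. In CPM with nothing added, Lepr was 4.28-fold lower, Ifnar1 2.43-fold lower and Ifngr2 2.25-fold lower. Il6st was 1.71-fold higher there, Ifngr1 1.62-fold higher and Ifnar2 1.35-fold higher, so that the levels of the chains of both interferon receptors lay further apart in this library. Each of the other libraries was compared with its other 5 in the same way. Plate 1 replicates 1, 2 and 3 had 0, 0 and 1 of the 8 more than 2-fold lower, against 5.19%, 6.69% and 2.45% of genes. The lowest and highest plate 2 libraries had 0 of the 8, against 0.925% and 1.35%. Without the middle plate 2 library, none of the 8 was called between plates, where 12.0% of all genes were. The smallest adjusted p was then 0.0644, for Ifnar2, at a log2 fold change of -0.40 (SE 0.14), and Ifnar1 was at -0.48 (SE 0.18, adjusted p = 0.0965).

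In the same library, the ratio to the other libraries changed along the GC content of transcript ends. The other libraries were not examined in this way, so the trend cannot be called particular to this one. The end used was that of the longest protein-coding transcript of a gene, which may not be the end that was read. When 11909 genes were sorted by the GC content of their last 200 nt into 10 groups of equal size, the median log2 ratio to the other libraries went from -0.32 in the group of lowest GC content to 0.40 in that of the highest. Lepr, with the lowest GC content of the 10 receptors at 29.5%, lay far below the median of its group. Ifngr1 and Ifnar2, at 33.5% and 36.0%, lay above the medians of theirs, and Ifngr2 and Ifnar1, at 46.0% and 42.0%, lay below. The part of GC content in these values was not tested. Pecam1 was low in the same library, at 3.41 CPM against between 23.7 and 99.8 CPM elsewhere.

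**Figure D4:**
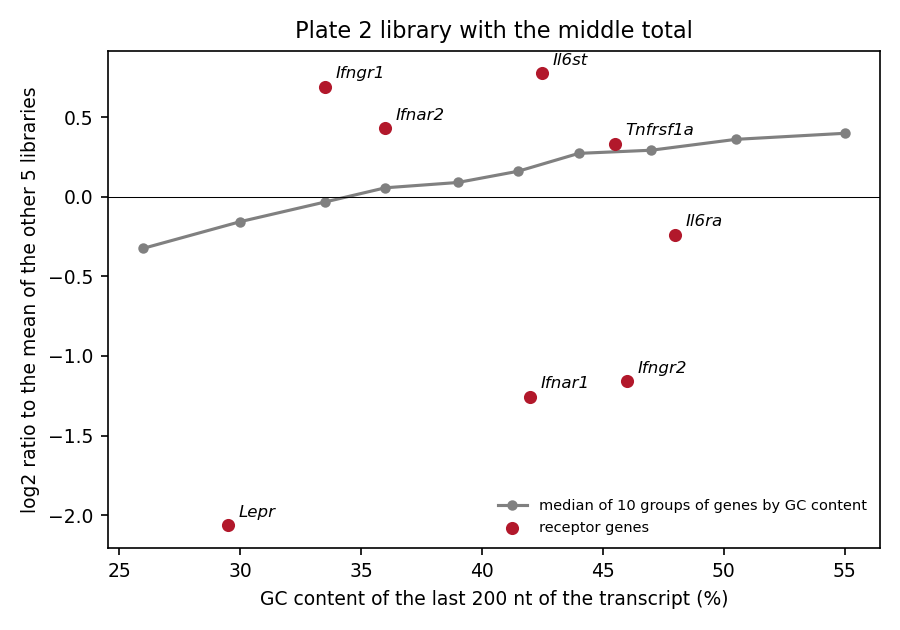
Log2 ratio of CPM in the middle plate 2 library to the mean of the other 5 libraries, against the GC content in percent of the last 200 nt of the transcript, for the 8 receptors tested (red) and the median of each of 10 groups of genes by GC content (grey). The grey line rises from -0.32 to 0.40, and Lepr, Ifnar1 and Ifngr2 lie well below it.

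The genes whose pattern over the libraries was most like that of Il6st were sought among the 8657 genes that averaged 10 CPM or more. Pearson's r of log2(CPM + 1) was 0.997 for each of Arhgef7, Nacc2 and Ei24 over the 6 libraries. Arhgef7 was at 36.5, 36.9 and 36.4 CPM on plate 1 and at 44.6, 54.4 and 46.4 CPM on plate 2. The median r of all genes with Il6st was 0.573, and 598 genes had r above 0.95. All points share the scale of their library, and the part of that scale in these values was not tested.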

How the data were processed

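The study's authors trimmed the reads with Trim Galore 0.6.4, assigned them to GRCm38 transcripts (GENCODE M23) with Salmon 1.5.1 with its length correction off, and used Tximeta to sum transcripts to genes. The deposited numbers are the authors' expected counts and carry no normalization. The receptors and all lists were chosen with earlier results of these data known. Counts were divided by the column total (21399987 to 36488198) for CPM and rounded for edgeR and DESeq2. Gene positions are from GENCODE M21 on GRCm38, in which 54107 of 54281 identifiers were found. Every pair of libraries differed beyond sampling noise. For the comparison of plates, 15669 genes kept by filterByExpr entered a robust quasi-likelihood fit in edgeR 4.0.16 with TMM scaling, adjusted by Benjamini-Hochberg, at a threshold of 0.05, after a test on simulated data. The SE given for an edgeR log2 fold change was derived from the test, as its absolute value over the square root of the F statistic. Receptors were compared within libraries by exact sign-flip permutation tests on log2 ratios of CPM + 1. Alternatives were DESeq2 1.42.0, limma-voom 3.58.1, other scalings, filters and pseudocounts, and each library left out, and the comparison of plates on CPM over the total was added after seeing the data. Named genes are the 10 receptors, genes of partner pairs, the 3 highest of each list, those called between plates, genes at 0 that pair with a receptor, and the 3 most like Il6st. Others (Lifr, Cntfr, Il10rb, Il11ra1, Il1r2, Cd14, Stat5a, Rsad2 and the markers) were named after their values were seen. R 4.3.3, Python 3.11.15, numpy 2.4.6 and scipy 1.17.1 were used.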

Additional observations from a re-analysis of the deposited data

Results flagged for a closer look

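In 3 of the 11 sets of values checked, 1 of the 6 libraries stood apart from the rest by more than the 95% critical value of Dixon's ratio, the gap to the nearest value over the whole range, which chance exceeds in about 1 of 20 sets. The ratio was 0.841 for Lepr, low in the middle plate 2 library, and 0.720 for Ifngr1 and 0.698 for Ifnar2, both high in the same library. The 3 are not independent of each other, since they come from 1 library.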

How the results depend on the processing

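The number of genes called between plates, 29, was 34 with DESeq2 size factors and 29 with at least 10 counts in every library, but 1482 without scaling beyond the total, 530 with DESeq2, 10 with limma-voom and 545 without a filter. It ranged from 0 to 1911 with 1 library left out. It was 0 without plate 1 replicate 1 or without the lowest plate 2 library (1611 and 2121 genes at an unadjusted p under 0.05), 2, 6 and 9 without plate 1 replicate 2, plate 1 replicate 3 and the highest plate 2 library, and 1911 without the middle one. The cause was not tested. The count of receptors called was 1 (Il6st) without scaling beyond the total and 0 in every other setting. The sign for Ifngr1 turned with DESeq2 size factors (-0.0093), DESeq2 (-0.0076), limma-voom (-0.038) and without plate 1 replicate 2 (-0.035), plate 1 replicate 3 (-0.022) or the middle plate 2 library (-0.30), and that for Ifnar2 without scaling beyond the total (0.088). Among ratios between genes, the sign turned for Ifngr1 to Ifngr2 without the middle plate 2 library (-0.024), for Ifngr2 to Ifnar2 (-0.0025) and Tlr4 to Il1r1 (-0.053) without the lowest, and on plate 1 alone for Tlr4 to Il1r1 (-0.16) and Tlr4 to Ly96 (-0.096). With 1 library left out, the value for Ifngr1 went up to 0.18 (without the highest plate 2 library), and the ratios went up to 0.36 for Ifngr1 to Ifngr2 (without the lowest), 0.37 for Ifngr2 to Ifnar2 (without the middle one) and 0.14 for Tlr4 to Il1r1 (without plate 1 replicate 1). Without the lowest plate 2 library, Ifngr2 went to -0.58 and Ifnar2 to -0.075. Ifnar2 was at -0.10 without the highest. The ratio of Tlr4 to Ly96 was 0.036 without the middle one, 0.042 without the lowest and 0.15 without plate 1 replicate 1, and that of Ifngr2 to Ifnar2 was 0.050 without plate 1 replicate 1 and 0.053 without the highest plate 2 library. The order of mean levels was the same with TMM or DESeq2 scaling, and 0 of 14 comparisons passed after adjustment with a pseudocount of 0.1 or 5. No paired analysis was possible because replicate numbers in the labels run on from plate 1 to plate 2 with none in common, and the separate numbering of the plate 2 columns could not be tied to them. Depth limits Il1r1 and Tlr4, at 1 to 18 counts per library.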
